A study of Mus musculus with 6 samples.

Results

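Protein S (Pros1) and Gas6 are the ligands, and Axl, Mertk and Tyro3 the receptors, of the TAM family. All probes whose platform annotation names 1 of these 5 genes were taken, which gave 5 probes for 5 of the 16593 named genes on the array, 1 probe per gene. Of the 5, 4 were measured well enough to be tested, among 6430 tested genes. The family was chosen by the homozygous against wild-type contrast of Pros1, which stood among the genes called higher in an earlier reading of the same arrays. That contrast is therefore given for Pros1 as a description, without a test. Its partners came in by family membership and not by their own values.

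RNA from the lens of 6 C57BL/6J mice aged 18 weeks was hybridised to Illumina BeadChips, 1 mouse per array. In 3 mice both copies of Fgf9 carried Y162C, a substitution of 1 amino acid in fibroblast growth factor 9, and 3 mice were wild type. By their labels, 1 wild-type mouse was female and 2 were male, and 2 homozygotes were female and 1 was male. They name no transgene or treatment in either group. Whether the homozygotes came from 1 line was not given in the sources used here.

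TAM receptors are receptor tyrosine kinases of the cell surface. Their ligands bind phosphatidylserine exposed on dying cells or cell fragments through a Gla domain, a stretch modified by a vitamin K-dependent carboxylase, and bind the receptor at their other end. The bridge lets a phagocyte engulf the dying cell, and the same receptors dampen innate immune signalling. In the eye Mertk is best known from the retinal pigment epithelium, which uses it to engulf the shed tips of photoreceptors. Protein S also circulates in blood, where it is a cofactor of the anticoagulant activated protein C.

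The start regions of Pros1 and Gas6 are shown because these ligand genes are the members whose RNA was above background on all 6 arrays. Each window runs from 250 bases before to 50 bases after the RefSeq gene start in the build GRCm38.p6, 5′ to 3′ on the strand of the gene. Pros1 lies on the plus strand of chromosome 16 (window chr16:62854057-62854356) and Gas6 on the minus strand of chromosome 8 (window chr8:13494486-13494785). Capitals mark GC boxes, the letters GGGCGG or their reverse complement CCGCCC.
Pros1: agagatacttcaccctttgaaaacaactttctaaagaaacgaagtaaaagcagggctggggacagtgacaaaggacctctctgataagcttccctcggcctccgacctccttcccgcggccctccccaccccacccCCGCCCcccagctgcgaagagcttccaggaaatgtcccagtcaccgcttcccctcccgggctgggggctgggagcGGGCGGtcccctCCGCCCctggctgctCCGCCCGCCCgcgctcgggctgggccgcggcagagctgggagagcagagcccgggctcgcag
Gas6: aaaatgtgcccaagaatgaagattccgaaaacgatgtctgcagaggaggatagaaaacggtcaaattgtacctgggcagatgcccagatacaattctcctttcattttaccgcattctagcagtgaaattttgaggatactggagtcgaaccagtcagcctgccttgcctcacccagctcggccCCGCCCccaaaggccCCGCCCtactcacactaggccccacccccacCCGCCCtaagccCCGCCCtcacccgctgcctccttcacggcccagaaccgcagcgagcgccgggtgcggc
The Pros1 window held 5 GC boxes, 2 of which share letters, and the Gas6 window held 4. The windows that the same table gives for Axl, Mertk and Tyro3 held 2, 4 and 6, and those of Axl and Tyro3 are set at a start inside the outer coordinates of the gene. A GC box was present in 35.7% of all 32851 RefSeq windows of this length. Further motifs were searched on both strands. The CCAAT box, spelled CCAAT, was in 0 of the 5 windows and in 37.4% of all windows. The TATA box, spelled TATAAA, was in 0 of the 5 and in 13.6% of all. The core of the hypoxia response element, spelled ACGTG, was in 0 of the 5 and in 19.6% of all. GC content was 66.7% for Pros1 and 58.3% for Gas6, against a median of 52.7% over all windows. These matches describe the letters only.

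Mean signal was 191 to 200.4 on the wild-type arrays and 161.6 to 165.7 on the homozygous arrays, and 8713 to 9671 against 7816 to 8396 probes were above background. A probe counts as above background where its detection p-value, its rank among negative control beads, is under 0.05. Lens fibre markers were above background for 10 of 11 genes on each array. Of 10 lens epithelium markers 6 or 7 were, with Pax6 and Npnt on 0 arrays and Foxe3 on 1. Photoreceptor markers were above background for 13 or 14 of 14 genes on each array. Wild type replicate 2 stood apart on the first principal component (43.2% of the variance). The sex genes of wild type replicate 3 went against its label of male: X-inactivation RNA Xist was detected and Y-linked Eif2s3y was not. Fgf9 had 1 probe, detected on 0 of 6 arrays, and it would not show the substitution. The contrast found 28 of 6430 tested genes changed at a limma adjusted p under 0.05 (0.435%), 7 up (0.109%) and 21 down (0.327%).

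Pros1, the anticoagulant ligand that activates Tyro3 and Mertk, was higher in every homozygous lens than in any wild-type lens. Its normalized log2 signal was 5.89, 6.31 and 6.28 in wild type replicates 1, 2 and 3, and 7.27, 7.11 and 7.03 in homozygous replicates 1, 2 and 3. The lowest homozygous value lay 0.72 above the highest wild-type value, and the values spanned 0.42 within the wild type and 0.24 within the homozygotes. Means were 6.16 ± 0.24 (SD, n = 3) and 7.14 ± 0.12 (SD, n = 3). This is a 1.97-fold difference (log2 fold change 0.98, SE 0.18). Its rank was 14 among the 6430 tested genes ordered from the most raised, and it was 1 of the 7 genes called up, the call through which the family was chosen. In whole lens RNA a change in the number of cells that make a transcript and a change of RNA per cell cannot be told apart.

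**Figure D1:**
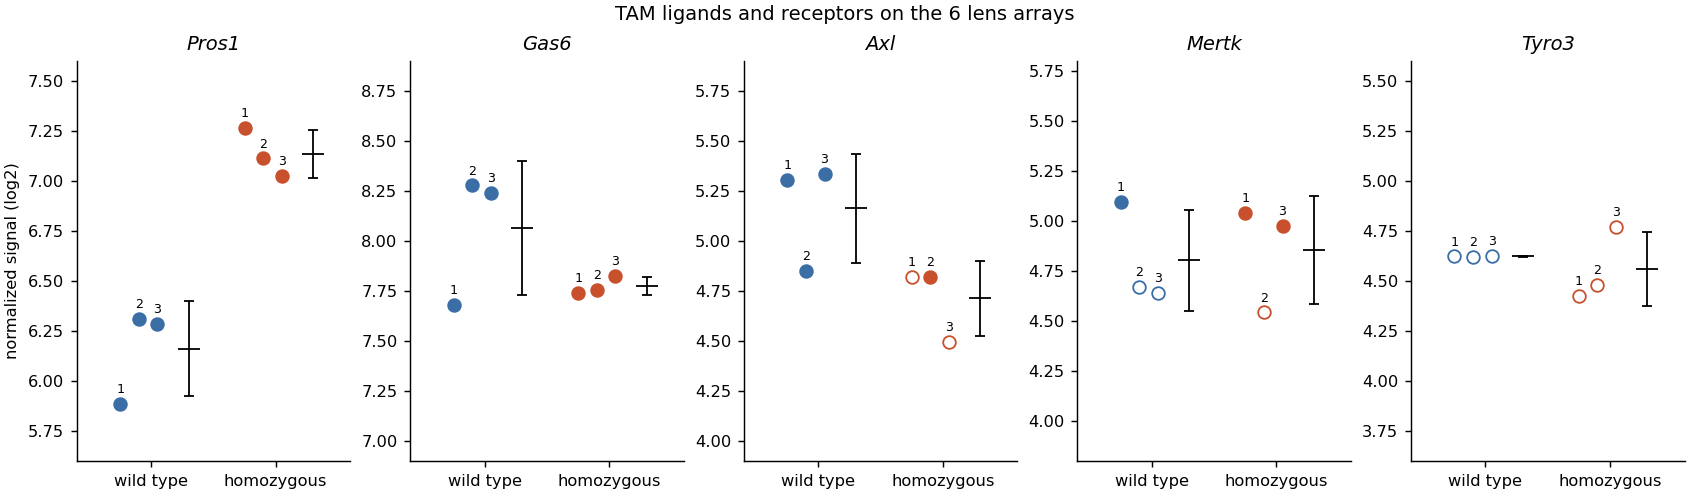
Normalized log2 signal of the 5 members by genotype. Numbered points are the replicates, filled where the probe was above background and open where it was not, bars are the group mean ± SD (n = 3), and each panel spans 2 log2 units around its own mean. Pros1 runs from 5.89 to 6.31 in the wild type and from 7.03 to 7.27 in the homozygotes.

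The size of the Pros1 difference depended on the scale. Its raw signal was 132.4, 174 and 156.4 in wild type replicates 1, 2 and 3, against 193.2, 186.7 and 174.4 in the homozygotes. On this scale wild type replicate 2 and homozygous replicate 3 all but met, and the ratio of group means was 1.20. The homozygous arrays were dimmer as a whole, which the raw ratio does not take into account. By rank within its own array, 83.2%, 86.5% and 86.3% of probes lay at or below Pros1 in the wild type. In the homozygotes 91.9%, 91.2% and 90.7% did. Quantile normalization keeps this rank, so it is not a reading apart from the normalized values. A rank also rises where other probes fall. The authors' processed intensity was 47.3, 69.3 and 67.6 in the wild type and 148.6, 130.9 and 122.5 in the homozygotes, a ratio of means of 2.18. The groups did not overlap on any of these scales, which come from the same signals and are not independent of each other. The processed values also keep the order of probes in the raw signal of each array.

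Among mice labelled female, Pros1 was 5.89 in the 1 wild type and 7.27 and 7.11 in the homozygotes on the normalized log2 scale. Among mice labelled male it was 6.31 and 6.28 in the wild type and 7.03 in the 1 homozygote, and the second of these wild-type values is that of replicate 3, whose sex genes go against its label. Without that array the log2 fold change was 1.03. With sex as labelled in the fit it was 1.02, and 1.04 when that array was left out as well, and Pros1 was not among the called genes in either. Leaving out each array in turn gave 0.83 to 1.05. Pros1 was among the called genes without wild type replicate 1 or 2, and was not without wild type replicate 3 or without homozygous replicate 1, 2 or 3, fits that had 1 array fewer. These fits reuse the values that chose the family, so they describe Pros1 and do not test it.

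Gas6, the ligand of all 3 receptors, had the wider spread in the wild type. Its normalized log2 signal was 7.68, 8.28 and 8.24 in wild type replicates 1, 2 and 3 and 7.74, 7.75 and 7.82 in homozygous replicates 1, 2 and 3. The groups overlapped, since wild type replicate 1 lay below all 3 homozygotes while the other two wild-type lenses lay above them. Means were 8.07 ± 0.34 (SD, n = 3) and 7.77 ± 0.05 (SD, n = 3), a log2 difference of -0.29 that did not pass (SE 0.17, 95% interval -0.66 to 0.08, limma adjusted p = 0.640). Without wild type replicate 1 the difference was -0.48 (limma adjusted p = 0.123). With each array scaled to its median in place of quantile normalization, Gas6 stood at -0.72 and passed (limma adjusted p = 0.0461), in a setting that shifted the median of all genes to -0.32.

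**Figure D2:**
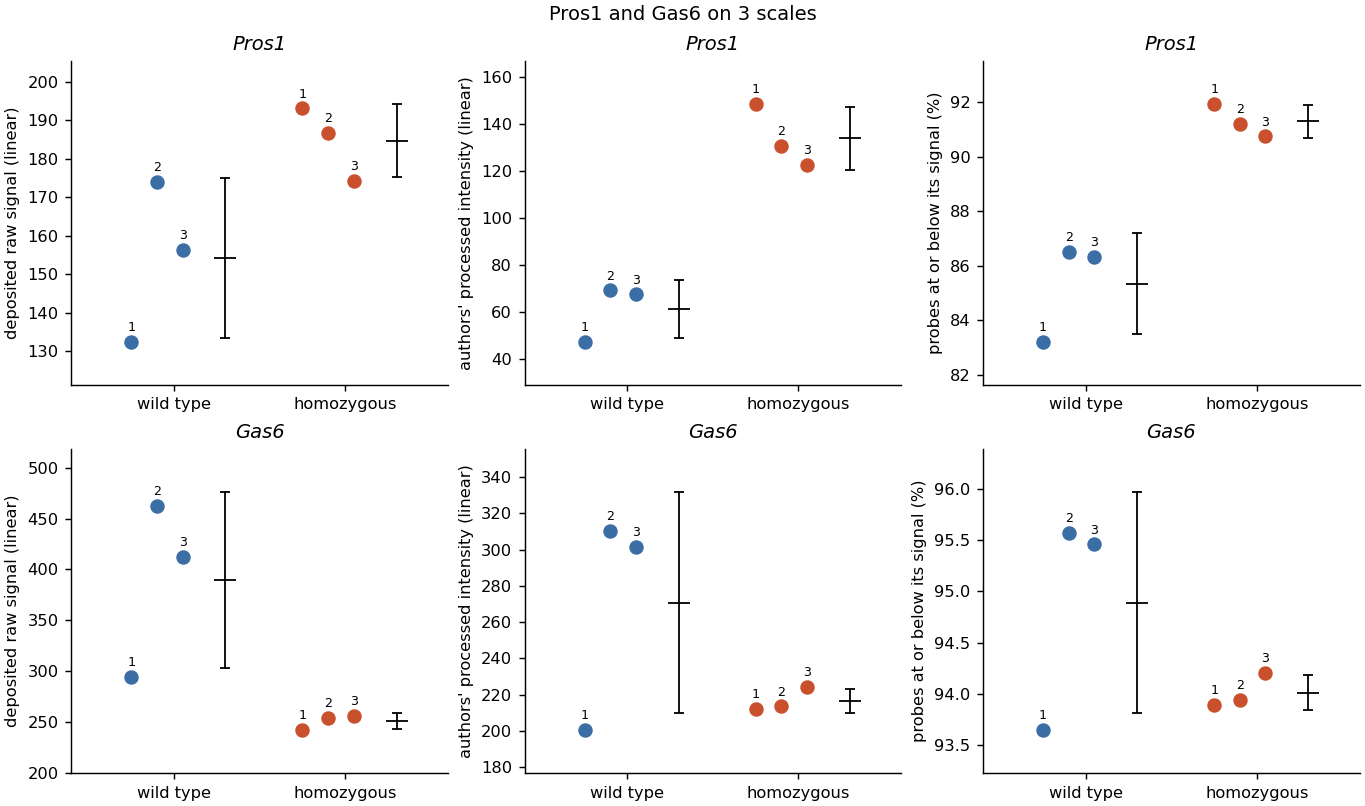
Pros1 (top) and Gas6 (bottom) by genotype as deposited raw signal, as the authors' processed intensity and as the percent of probes on the same array with a signal at or below that of the gene. Numbered points are the replicates and bars the mean ± SD (n = 3), and the axes do not start at 0. Pros1 separates the groups on each scale, while Gas6 in wild type replicate 1 lies below the homozygotes on the processed and rank scales.

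The raw signal of Gas6 was 293.8, 462.6 and 412.1 in the wild type and 241.8, 254.1 and 256.1 in the homozygotes, so there the groups did not overlap. Its authors' processed intensity was 200.5, 310.3 and 301.5 against 212, 213.6 and 224.4, where they did. Gas6 thus separated the groups on the raw scale and not on the normalized or processed scale.

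Axl, the receptor that binds Gas6 and not protein S, was near the detection limit. It was above background on 3 of 3 wild-type arrays and 1 of 3 homozygous arrays. Axl thus met the detection filter of 3 arrays through the wild type alone, and its direction rests in part on that filter. Its normalized log2 signal was 5.31, 4.85 and 5.34 in wild type replicates 1, 2 and 3 and 4.82, 4.82 and 4.50 in homozygous replicates 1, 2 and 3. The groups did not overlap, by a gap of 0.03 on the log2 scale, which was true of 15.1% of all tested genes. The log2 difference was -0.45 (SE 0.19, 95% interval -0.86 to -0.04), and it did not pass over all probes (limma adjusted p = 0.491). With no background correction it was -0.17 and with an offset of 50 it was -0.22, neither passing.

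Macrophage and leukocyte markers are given beside Axl, which macrophages express. Taken as deviations from the mean of all 6 arrays, their 4 tested genes averaged 0.59, 0.09 and 0.67 in the wild type against -0.59, -0.33 and -0.44 in the homozygotes. The deviations of Axl were 0.37, -0.09 and 0.40, and -0.12, -0.12 and -0.44. Their summed log2 level ran from 21 to 23.3 in the wild type and from 18.2 to 19.3 in the homozygotes. Of the 12 markers on the array 4 to 7 were above background on the wild-type arrays and 1 on each homozygous array, and Ptprc, Adgre1, Itgam, Tyrobp and C1qa were on 0 arrays. Of the 4 tested genes 3 were above background on all 3 wild-type and 0 homozygous arrays, so they reached the detection filter through the wild type alone and the direction of the list mean is set by that filter. The part of these cells in the Axl values was not tested. The inner retina and glia list stood at 0.45, 1.13 and 0.82 against -0.91, -0.65 and -0.85 (7 tested genes, summed level 42 to 46.8 against 32.5 to 34.3). All 7 of its genes were above background on 3 wild-type and fewer homozygous arrays, so its direction also rests in part on the filter.

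Mertk, the engulfment receptor of the pigment epithelium and of macrophages, was detected above background in 1 wild-type and 2 homozygous lenses. Its normalized log2 signal was 5.10, 4.67 and 4.64 in wild type replicates 1, 2 and 3 and 5.04, 4.54 and 4.98 in homozygous replicates 1, 2 and 3. Each group held a high and a low lens, and the groups overlapped. The log2 difference was 0.05 (SE 0.19, 95% interval -0.37 to 0.47, limma adjusted p = 0.959), and it was -0.038 with median scaling, which is 0.28 above the median of all genes in that setting, and -0.017 and -0.029 without wild type replicates 2 and 3. The interval runs from 0.774 to 1.38 as a ratio, so these arrays do not exclude a change within that range in either direction. Pigment epithelium and pigment cell markers stood highest on wild type replicate 2, at a mean deviation of 1.21, where Mertk was at -0.16. On the other arrays this list lay at 0.14 and 0.12 in the wild type and at -0.73, -0.07 and -0.68 in the homozygotes (7 tested of 11, summed level 39.7 to 47.4 against 33.8 to 38.4, with Lrat and Tyr on 0 arrays). Of these 7 genes 6 were above background on 3 wild-type and fewer homozygous arrays, 2 of them on 0 homozygous arrays. The direction of this list thus also rests in part on the detection filter.

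Tyro3, the receptor best known from the nervous system, was above background on 0 of 6 arrays and was not tested. Its raw signal was 92.8, 94.1 and 93.6 in the wild type and 87, 83.1 and 88.9 in the homozygotes, with detection p-values of 0.0639 to 0.521. No fold is given, since both groups were at background.

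**Figure D3:**
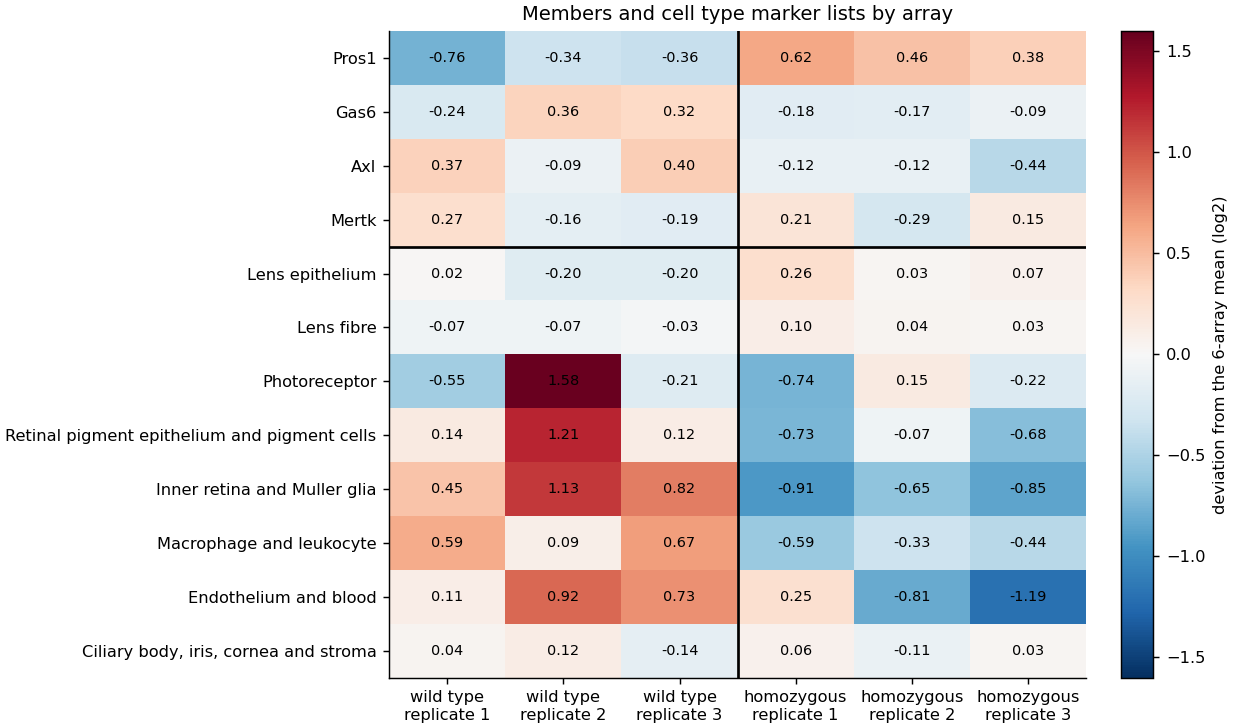
Deviation from the 6-array mean (log2) on each array for the 4 tested members (top rows) and, as the mean of the tested genes, for each cell type marker list (lower rows). Red is above and blue below the mean. Pros1, which was chosen by this contrast, and the lens fibre list both lie below 0 on 3 wild-type and above 0 on 3 homozygous arrays. Homozygous values are at least 0.38 for Pros1 and 0.03 to 0.10 for the fibre list, which is a mean over genes. Axl and the macrophage and leukocyte list share their high arrays, wild type replicates 1 and 3. Axl and 3 of the 4 tested genes of that list met the detection filter through the wild type, which favours such a likeness.

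The lists of lens cells are given for the same arrays. Lens fibre markers lay at -0.07, -0.07 and -0.03 in the wild type and at 0.10, 0.04 and 0.03 in the homozygotes (10 tested genes, summed log2 level 134.2 to 134.6 against 135.2 to 135.9). Lens epithelium markers lay at 0.02, -0.20 and -0.20, and at 0.26, 0.03 and 0.07 (7 tested genes, summed level 54.3 to 55.9 against 56 to 57.6). In that list Aqp1, the water channel of these cells, was higher by 1.30 on the log2 scale (limma adjusted p = 0.00343). The median of the list was 0.18, with Epha2 at -0.53 (limma adjusted p = 0.471), Slc2a1 at 0.01 and Cdh2 at 0.02. Called down were 5 genes of the inner retina list and 1 of the macrophage list, against 0.327% of all tested genes. The directions of those lists rest at least in part on the filter. Of endothelium and blood genes Pecam1, Cdh5, Tek, Vwf and Emcn, which mark vessels, were above background on 0 arrays. The 2 tested genes of that list, Kdr and Hba-a1, gave deviations of 0.11, 0.92 and 0.73 against 0.25, -0.81 and -1.19. Markers of ciliary body, iris, cornea and stroma ran from -0.14 to 0.12 over the 6 arrays (5 tested genes, summed level 38.6 to 39.9 against 38.8 to 39.6). Photoreceptor markers lay at -0.55, 1.58 and -0.21 in the wild type and at -0.74, 0.15 and -0.22 in the homozygotes (14 tested genes, summed level 90.8 to 120.7 against 88.2 to 100.6). Without wild type replicate 2, the highest array for that list, the Pros1 log2 fold change was 1.05. That fit reuses the values that chose the family, and the part of photoreceptor cells in the Pros1 values was not tested.

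Genes that work with the TAM family were read from 8 lists with 93 genes, of which 84 were on the array and 33 were tested. Of the 33, 0 passed limma's test over all probes, against 0.435% of all tested genes, and 3 had an unadjusted p under 0.05, against 9.14%. Of the 33, 20 lay above 0, or 5 with median scaling. Their median log2 fold change was 0.04, or -0.23 with median scaling, a setting that put all tested genes at a median of -0.32.

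RNA of genes for the carboxylation step that Pros1 and Gas6 need was measured, and carboxylation itself was not. Of 5 tested vitamin K cycle genes 0 passed, and 4 stood above 0 in log2 fold change (list median 0.26), or 2 with median scaling (list median -0.16). Nqo1, a quinone reductase, was at 0.49 (SE 0.18, limma adjusted p = 0.429), with log2 signals of 5.15, 4.90 and 5.08 in the wild type and 5.49, 5.36 and 5.75 in the homozygotes. Ggcx, the carboxylase itself, was at 0.29 (SE 0.17, limma adjusted p = 0.640), with 5.09, 4.71 and 4.83 against 5.29, 5.12 and 5.10. For both genes the groups did not overlap on this scale, as in 5 of the 33 pathway genes and 15.1% of all tested genes. Their raw signals do overlap. Nqo1 ran from 103.6 to 106.8 in the wild type and from 103.2 to 110.7 in the homozygotes. Ggcx ran from 96.9 to 105 and from 94.9 to 106.1, near the detection limit (detection p up to 0.0489). Vkorc1, the reductase that recycles vitamin K, was at -0.19, or -0.62 with median scaling, where it passed (limma adjusted p = 0.0333). Other Gla-domain proteins had 1 tested member of 11 on the array, Prrg2, a membrane Gla protein, at 0.03, or -0.39 with median scaling. Protein C pathway and coagulation regulators likewise had 1 of 11, Serpind1, the thrombin inhibitor heparin cofactor II, at 0.15, or -0.28 with median scaling, and the rest did not reach the detection filter.

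Of the other bridging proteins and receptors for dying cells 5 of 18 were tested and 0 passed, with a median of 0.05. Mfge8, a secreted protein that bridges phosphatidylserine to integrins, was at 0.40 (SE 0.13, limma adjusted p = 0.360), or -0.05 with median scaling. Its normalized log2 signal was 10.31, 10.37 and 9.91 in the wild type and 10.66, 10.60 and 10.53 in the homozygotes, which do not overlap, while its raw signals, 1170 to 1725 and 1323 to 1409, do. Calr, calreticulin, was at 0.11, or -0.14 with median scaling, and did not pass. Engulfment signalling had 9 tested genes of 13 on the array, 0 passing, 7 of them below 0 and a median of -0.04. Abca7, a lipid transporter of phagocytes, was at -0.67 (SE 0.19, limma adjusted p = 0.267) and Crk, an adaptor protein upstream of Rac, at -0.30 (limma adjusted p = 0.584). With median scaling both passed, at -0.89 and -0.74 (limma adjusted p = 0.0290 and 0.0261). Abca7 was above background on 1 of 3 homozygous arrays.

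Phosphatidylserine exposure and retrieval had 3 tested genes of 8 on the array, 0 passing and a median of 0.04. The scramblase Plscr1 was at 0.17 and the scramblase subunit Xkr8 at 0.04, or -0.05 for Xkr8 with median scaling. Signalling downstream of the receptors had 6 tested of 14, 0 passing and a median of 0.09. The kinase Src was at -0.37 (limma adjusted p = 0.613), and Socs3, an inhibitor of cytokine signalling, was at 0.25 (limma adjusted p = 0.711), or -0.06 with median scaling. Genes that shed the receptors or check that shedding had 3 tested of 4 and a median of -0.01. The protease Adam17 was at 0.29 and the inhibitor Timp3 at -0.07, neither passing.

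**Figure D4:**
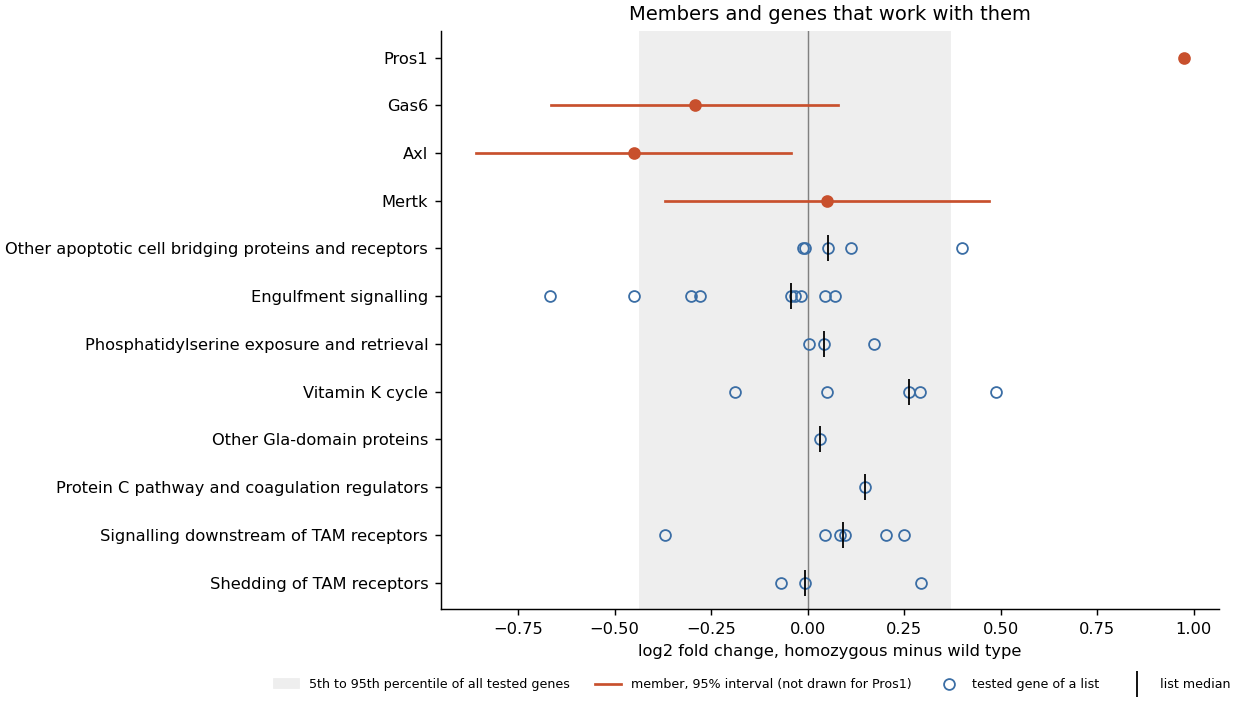
Log2 fold change, homozygous minus wild type, of the 4 tested members, with 95% intervals for all but Pros1, and of the 33 tested genes of the 8 lists, with list medians as black ticks. The grey band holds the 5th to 95th percentile of all 6430 tested genes, -0.44 to 0.37. Pros1 is drawn at 0.98 as a description, since this contrast chose the family. The intervals of Gas6 and Mertk include 0. That of Axl does not, but Axl did not pass over all probes (limma adjusted p = 0.491). It met the detection filter through the wild type alone.

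The genes whose pattern over the 6 arrays was most like each member were found by the root mean square difference of log2 deviations. The 5 nearest to Pros1 were Usp18, a protease that removes the ubiquitin-like modifier ISG15, at 0.18, Tcaf2, a regulator of a cold-sensing channel, at 0.19, Trex1, a DNA exonuclease, at 0.20, Ptpn14, a tyrosine phosphatase, at 0.20, and Jak2, a kinase of cytokine receptors, at 0.21. The median over all tested genes was 0.54 for Pros1, 0.31 for Gas6, 0.36 for Axl and 0.29 for Mertk. Their log2 fold changes were 0.71, 0.66, 0.71, 0.64 and 0.62, in that order, a direction that the choice by likeness to Pros1 fixes. The 3 nearest to Gas6 were Sat1, Srsf4 and Nfe2l1 at 0.048 to 0.058. Those nearest to Mertk were Zfp692, Nrn1l and Ccdc189 at 0.049 to 0.064. Those nearest to Axl were Trim23 at 0.066, C1qb at 0.099 and Slc9a3r1 at 0.11. Both C1qb and Slc9a3r1 were detected in 3 of 3 wild-type lenses and in 0 of 3 homozygous lenses. Like Axl, these genes met the detection filter through the wild type alone, which favours such a likeness.

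**Figure D5:**
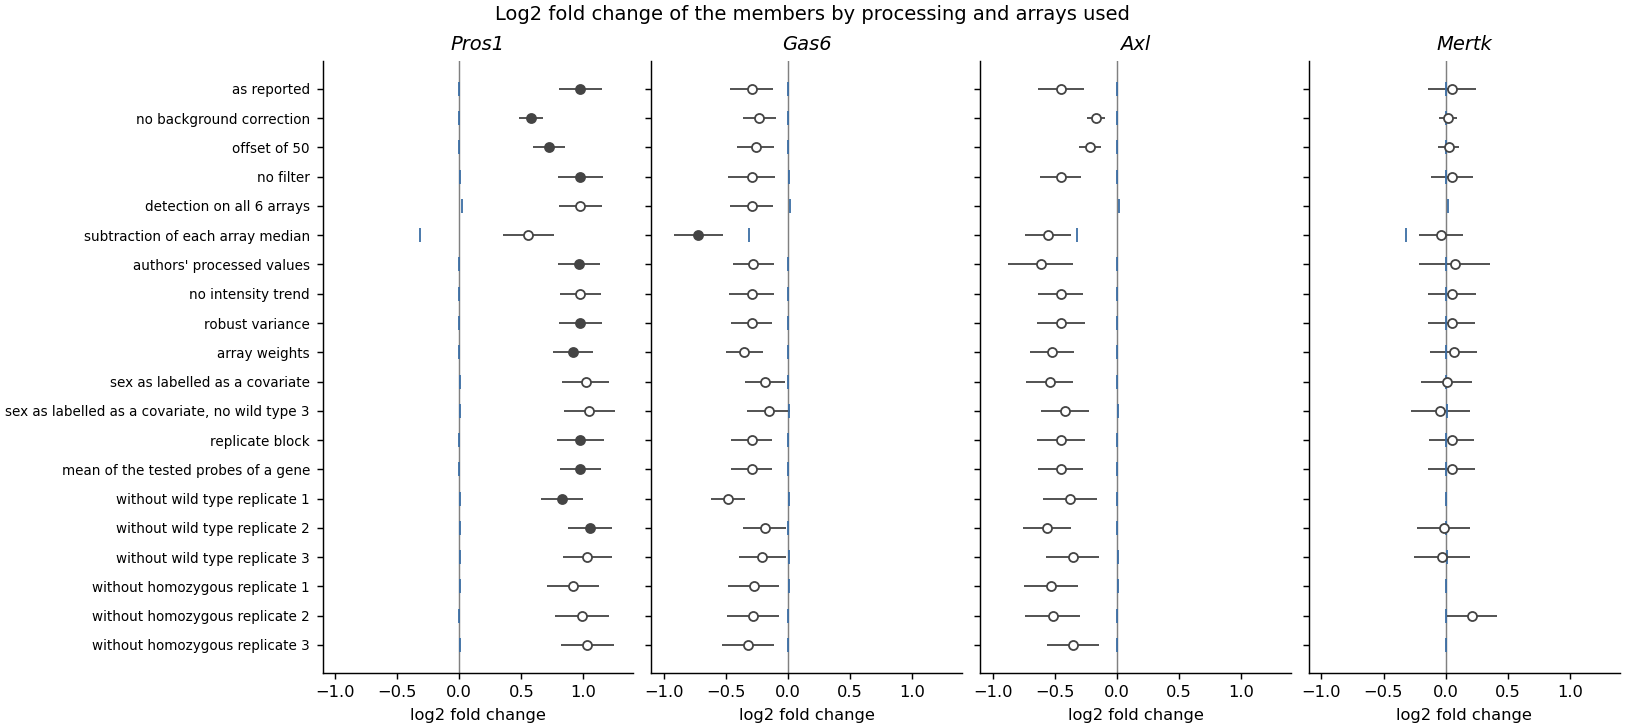
Log2 fold change ± SE of the 4 tested members as reported (top) and in each of 19 other settings. Points are filled where the limma adjusted p was under 0.05, and blue ticks are the median of all tested genes. For Pros1 every setting refits the contrast that chose the family, so its filled points are no test. Pros1 stays between 0.56 and 1.05, Gas6 and Axl stay below 0, and Mertk lies on either side of 0.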

How the data were processed

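Per the file headers, the authors' deposited signal is a linear intensity per probe, not normalized between arrays, with a detection p-value beside it. A second table holds intensity values the authors had processed, also linear, with 28% of values below 0 and nearly equal medians, made by a method not given in the sources used here. The submitters' processing notes name GenomeStudio 2011.1. Per the labels' protocols, RNA was extracted with Trizol and labelled with an Ambion kit.

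Signals were background-corrected with limma 3.58.1 in R 4.3.3 (normexp, with negative controls inferred through the detection p-values, offset 16), quantile normalized and taken to log2. The offset pulls dim probes toward 0, and quantile normalization hides a change common to most transcripts. Of 25697 probes, 23978 have 1 gene symbol, 0 several and 1719 none. Testing was limited to the 8618 probes detected at p under 0.05 on 3 or more arrays, using lmFit and eBayes (intensity trend, two-sided, Benjamini-Hochberg over all tested probes, called under 0.05). A gene is represented by its brightest tested probe. The fit was tested on simulated data. Values are mean ± SD, and the number of arrays limits the precision.

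The members and gene lists were chosen with earlier results of these data known. Within the pathway lists the genes named are up to 4 that pass, or else the 2 of smallest p. Vkorc1 and the values of Kdr, Hba-a1 and undetected markers were added after values were seen. Likeness names the 5 genes nearest to Pros1 and the 3 nearest to each other tested member. Promoter windows come from RefSeq, GRCm38.p6, with 5 of 5 members matched by symbol.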

Additional observations from a re-analysis of the deposited data

How the results depend on the processing

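Fits of Pros1 in other settings reuse the values that chose the family and give no independent support. Pros1 kept its direction in 19 of 19 other settings and was among the called genes in 10. Its log2 fold change was 0.57 without background correction, 0.72 at an offset of 50 and 0.56 with median scaling, where it lay 0.88 above the median of all genes. Without each array in turn it was 0.83 to 1.05. Gas6 stayed below 0 in 19 settings (without each array -0.48 to -0.19) and passed with median scaling alone, at -0.72. Axl stayed below 0 in the 18 settings that tested it, with 0 calls. With median scaling it stood at -0.55, a difference of -0.24 from the median of all genes. It was not tested where detection on all 6 arrays was required. Mertk was not tested there or without wild type replicate 1 or homozygous replicates 1 and 3. It stood at -0.038 with median scaling, which is 0.28 above the median of all genes there, at -0.042 with sex as a covariate and wild type replicate 3 left out, and ran from -0.029 to 0.21 without each array.

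Of the pathway genes, 0 passed in 18 settings and 3 with median scaling (Crk, Abca7 and Vkorc1), a setting that moved the median of all genes to -0.32, and in which 5 genes were called up and 653 down, against 7 and 21. Of 14 named pathway genes 7 changed sign, 3 of them (Mfge8, Serpind1 and Socs3) with median scaling alone. With median scaling Mfge8 was at -0.052, Calr at -0.14, Xkr8 at -0.047, Prrg2 at -0.39, Serpind1 at -0.28 and Socs3 at -0.056. With sex as a covariate Calr was at -0.16 and Prrg2 at -0.025, and with wild type replicate 3 also left out Calr was at -0.031, Prrg2 at -0.039 and Timp3 at 0.035. Without each array in turn Calr ran from -0.30 to 0.50, Xkr8 from -0.052 to 0.12, Prrg2 from -0.12 to 0.13 and Timp3 from -0.15 to 0.020. The cause of the changes of sign was not tested in any setting.

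Deviations of same-numbered samples correlated at 0.20, 0.19 and -0.03. Wild type replicates 1 and 2 correlated best with the homozygous replicate of the same number, and wild type replicate 3 did not. These values do not settle whether the samples were paired. With the replicate number as a block, 102 genes were called in place of 28, Pros1 stayed at 0.98, Gas6 at -0.29, Axl at -0.45 and Mertk at 0.05, and 0 pathway genes passed. Called genes numbered 17 without background correction, 18 at an offset of 50, 6 with detection on all 6 arrays, 16 without the intensity trend, 60 with array weights, 17 with sex as a covariate, 4 with that covariate and no wild type replicate 3, 18 with tested probes averaged and 9 to 72 without each array. Axl, Mertk and Tyro3 lie at or near background, which limits what can be seen of the receptors.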
